A study of Arabidopsis thaliana with 3 samples.

Results

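The SWI/SNF chromatin remodelers of Arabidopsis thaliana and the related remodeler PICKLE were followed through 10 genes, chosen by gene identifier out of 37336 genes in the count table. They are the ATPase genes BRM, SYD, CHR12 and CHR23, the scaffold genes SWI3A, SWI3B, SWI3C and SWI3D, the SNF5-type gene BSH, and PKL. All 10 were found in the table. RNA-seq of poly(A) RNA covered 3 samples, labelled replicates 1, 2 and 3, each of entire Col-0 seedlings, wild type, untreated and 7 days old. All 3 form 1 group, so there is no contrast between genotypes or treatments. Plants grew at 21 °C on agar plates (0.8%) of Murashige and Skoog salts with sucrose at 1.5%, in long days of 16 h of light. Whether the replicates were grown separately is not in the labels, so p-values reflect only how these samples vary, possibly for technical reasons.

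Chromatin remodelers burn ATP to slide, evict or re-space nucleosomes, which opens or closes regulatory DNA. In a SWI/SNF complex the ATPase is the motor, a pair of SWI3 proteins forms the scaffold, and the SNF5-type protein contacts the nucleosome. In Arabidopsis, complexes are named for their motor. BRM (BRAHMA) works with SWI3C, SYD (SPLAYED) with SWI3D, and the MINU ATPases CHR12 and CHR23 with SWI3A and SWI3B. PKL belongs to another family of remodelers, the CHD3 type, and is known in Arabidopsis for keeping embryo genes silent after germination.

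All 5 motors carry a common ATPase signature, the DExx box of helicase motif II, whose coding sequence is compared here. The stretches below are 60 bases from 1 coding exon each, read 5′ to 3′ on the coding strand from the RefSeq genome TAIR10.1, with the 4 codons of the box in capitals. They lie at chr2:18927999-18928058 (BRM, plus strand), chr2:12062513-12062572 (SYD, plus), chr3:1804496-1804555 (CHR12, minus), chr5:6501258-6501317 (CHR23, plus) and chr2:10716603-10716662 (PKL, plus).
BRM: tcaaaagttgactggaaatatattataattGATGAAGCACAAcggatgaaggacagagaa
SYD: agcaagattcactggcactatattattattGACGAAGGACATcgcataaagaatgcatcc
CHR12: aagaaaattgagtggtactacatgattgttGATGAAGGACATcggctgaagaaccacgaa
CHR23: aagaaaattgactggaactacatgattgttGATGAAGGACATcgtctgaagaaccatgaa
PKL: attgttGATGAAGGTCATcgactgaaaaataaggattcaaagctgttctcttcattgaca
The box of CHR12 and CHR23 is spelled alike, while the other 3 differ from it and from each other. The boxes of SYD and PKL still encode the same 4 residues as those of CHR12 and CHR23, whereas the box of BRM does not. The box alone therefore does not group the motors by family. Over whole proteins, translated from the longest RefSeq coding sequence, CHR12 and CHR23 were identical at 79.3% of 1062 aligned residues. BRM and SYD were identical at 33.2% of 1699, and BRM and PKL at 29.96% of 1225. The 6 pairs of SWI3 proteins lay between 27.2% and 34.4%. The exons of CHR12 and CHR23 shared no window of 50 bases, and their longest common run was 43 bases. The read length is unknown here, so how well reads shorter than that separated this pair is uncertain.

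The libraries held 32967215, 31761722 and 27069921 counts in replicates 1, 2 and 3. Replicate 1 stood apart from the others across the transcriptome (edgeR's biological coefficient of variation was 0.320 over all 3 libraries and 0.0950 without it), so values are given for each library. The labelled tissue was checked with markers of its parts. All 6 green tissue markers were abundant, summing to between 34214 and 40086 CPM (the share of a library's counts in parts per 1e6, with library sizes scaled by TMM). Of 11 root and root hair markers 4 reached 1 CPM in each library. Their summed level was 750 CPM in replicate 1 against 2059 and 2126 CPM in replicates 2 and 3, most of it from PYK10. With enough counts to test were 7, of which 6 were lowest in replicate 1. COW1 was highest there, at 3.09 against 2.94 and 2.42 CPM. The share of all tested genes lowest in replicate 1 was not counted. By edgeR's test for variation beyond the trend, described below, 3 of the 7 were called, beside 2.02% of all tested genes. These 3 were the Casparian strip gene CASP1 (adjusted p = 8.07e-06 by edgeR's test), the phosphate transporter gene PHT1;1 (4.2e-06) and the expansin gene EXPA18 (0.00996). The nitrate transporter gene NRT2:1 had 0 counts in each library, which allows up to 0.0843 to 0.115 CPM by a limit of 3 counts. The 6 dividing cell markers summed to 61.3, 55.5 and 55.0 CPM, but 5 of the 6 were highest in replicate 1, beside 45.4% of all tested genes. Their median log2(CPM + 0.5) in replicate 1 minus the mean of replicates 2 and 3 was 0.52. CDKB2;1 went the other way, at 13.2 against 20.1 and 24.4 CPM. The part of these marker differences in the results below was not tested.

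All 10 remodeler genes were detected, at 1 CPM or more in every library, as were 45.7% of all genes. To compare genes, CPM were divided by the length of the merged exons in kb. The members' median was 8.06 CPM per kb, beside 9.14 over the 17050 detected genes. SWI3B was highest at 15.3 ± 1.26 CPM per kb (SD, n = 3) and CHR23 lowest at 2.67 ± 3.04. Between them the order was BRM, BSH, PKL, SWI3C, SWI3A, SWI3D, SYD and CHR12. The ranges over libraries overlapped for every pair of neighbours in this order, so no neighbour was separated beyond the spread. Within libraries, SWI3B was above BRM, SWI3A above SWI3D and CHR12 above CHR23 in 3 of 3. Without replicate 1, PKL moved from rank 4 to rank 7, at 5.30 CPM per kb, and CHR23 stood at 0.927. In RNA from whole seedlings, fewer cells of a type and less RNA per cell cannot be told apart.

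**Figure D1:**
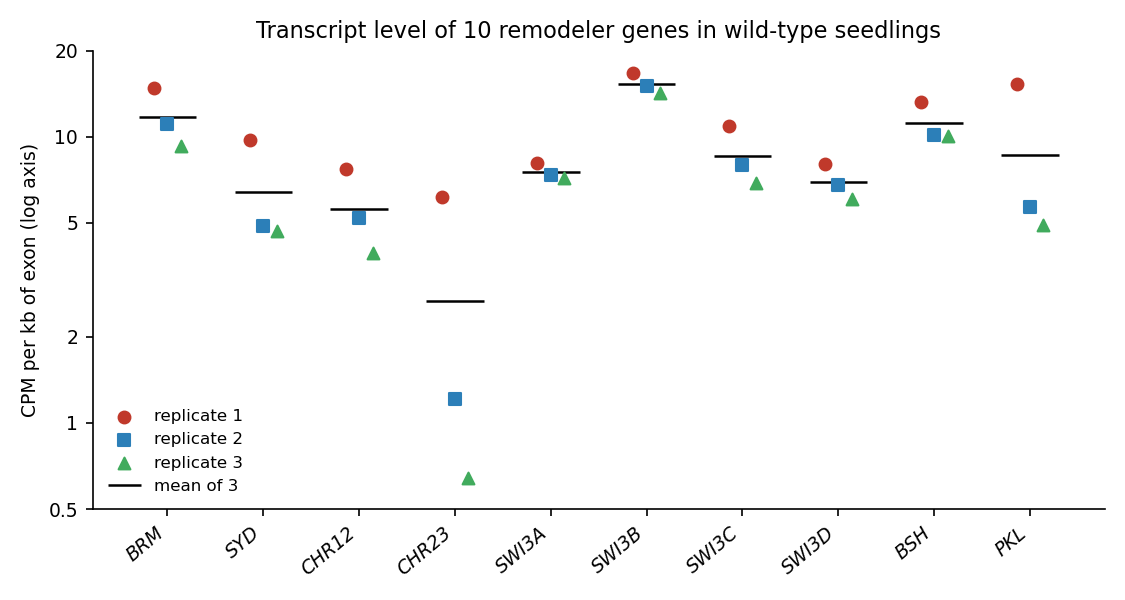
Level of the 10 genes in CPM per kb of merged exon (log axis) in each of 3 wild-type libraries, with the mean as a bar. Replicate 1 is the highest point for all 10, and the spread is widest for CHR23, from 6.17 to 0.643, and narrow for SWI3A, from 8.08 to 7.19.

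Among the 4 SWI/SNF ATPase genes BRM was the most abundant in each library. BRM (AT2G46020, chromosome 2, 18922533 to 18932055) is required for leaf, root and flower development. It was at 112, 84.1 and 70.3 CPM in replicates 1, 2 and 3, or 14.8, 11.1 and 9.27 CPM per kb. SYD (AT2G28290, chromosome 2, 12056213 to 12073279), which maintains the shoot meristem, was at 108, 54.7 and 52.2 CPM. Replicate 1 was thus about as high for SYD as for BRM, while replicates 2 and 3 lay close together. The SYD transcript is long, with 11171 bases of merged exon against 7578 for BRM, so the same reads stand for fewer transcripts, and SYD was at 9.71, 4.90 and 4.68 CPM per kb. BRM exceeded SYD in 3 of 3 libraries, by 1.52-, 2.24- and 1.96-fold per kb (log2 ratio 0.91 ± 0.29, SD, n = 3).

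The MINU genes CHR12 and CHR23 differed from each other in how far their libraries lay apart. CHR12 (AT3G06010, MINU1, chromosome 3, 1802141 to 1807530; ATCHR12 in RefSeq), which acts with CHR23 in embryo and meristem development, was at 29.6, 20.1 and 15.1 CPM, or 7.69, 5.22 and 3.93 CPM per kb, which is above SYD in replicate 2 and below it in replicates 1 and 3. CHR23 (AT5G19310, MINU2, chromosome 5, 6498743 to 6503692) was at 22.5, 4.41 and 2.34 CPM, from 799, 135 and 61 counts, and was the lowest of the 4 SWI/SNF ATPase genes in every library, at 6.17, 1.21 and 0.643 CPM per kb. CHR23 in replicate 1 was 5.09-fold above replicate 2 and 9.59-fold above replicate 3, whereas CHR12 was 1.47- and 1.96-fold above them. The ratio of CHR12 to CHR23 per kb was therefore 1.24-, 4.06- and 5.42-fold in replicates 1, 2 and 3. CHR12 was higher in 3 of 3 libraries, but the mean log2 ratio of 1.59 ± 1.13 (SD, n = 3) became 2.23 without replicate 1. It was 1.38 without replicate 2 and 1.17 without replicate 3. The paralogs are alike in structure, with 3849 and 3642 bases of merged exon, 12 exons each and a GC content of 42.4% and 40.99%.

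The makeup of the motor transcripts followed from these values. BRM made up 38.5%, 49.5% and 50.1% of the summed CPM per kb of the 4 SWI/SNF ATPase genes in replicates 1, 2 and 3. SYD held 25.3%, 21.8% and 25.2%, and CHR12 20.1%, 23.3% and 21.2%. The share of CHR23 moved most, with 16.1% in replicate 1 and 5.40% and 3.47% in the others. The sum itself was 38.3, 22.4 and 18.5 CPM per kb.

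**Figure D2:**
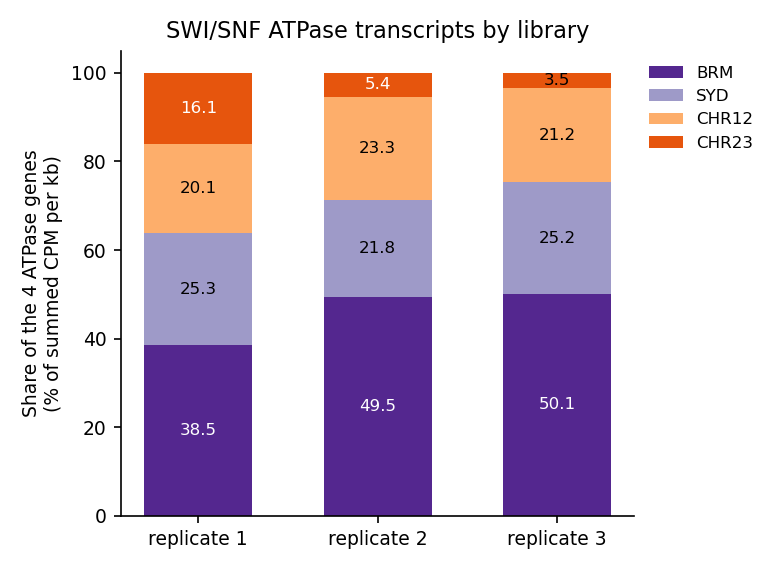
Share of each SWI/SNF ATPase gene in the summed CPM per kb of the 4 genes (%), stacked for each library. BRM holds 38.5% to 50.1%, and the CHR23 segment is 16.1% in replicate 1 against 5.40% and 3.47% in replicates 2 and 3.

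The scaffold genes SWI3A and SWI3B varied least between libraries. SWI3B (AT2G33610, chromosome 2, 14228972 to 14231408), whose loss stops embryo development, was at 28.8, 25.9 and 24.5 CPM. SWI3A (AT2G47620, chromosome 2, 19531939 to 19534471), also needed in the embryo, was at 15.7, 14.3 and 13.9 CPM. Their coefficients of variation were 8.24% and 6.24%, the 2 smallest of the 10, while those of SWI3D (14.4%) and SWI3C (24.1%) were larger. The members that are not scaffold genes ranged from 16.3% for BSH to 114% for CHR23, so SWI3D lay below that range and SWI3C within it. SWI3C (AT1G21700, chromosome 1, 7620001 to 7624166), the scaffold of BRM complexes, was at 30.1, 22.0 and 19.1 CPM. SWI3D (AT4G34430, chromosome 4, 16460907 to 16465524; CHB3 in RefSeq) was at 29.3, 24.7 and 22.1 CPM. Replicate 1 was the highest library for all 4, by 1.10- to 1.37-fold over replicate 2.

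Per kb, SWI3B led the scaffold genes in every library. It held 40.1% ± 1.64 of their summed CPM per kb (SD, n = 3), beside 22.1% ± 2.50 for SWI3C, 19.7% ± 1.22 for SWI3A and 18.1% ± 0.417 for SWI3D. The log2 ratio of SWI3A to SWI3B was −1.04, −1.02 and −0.98 in the 3 libraries, the scaffold pair with the smallest SD (0.03). The ratio of SWI3A to SWI3C changed sign between libraries, at −0.43, −0.11 and 0.06, so these genes were not separated beyond the spread. SWI3A exceeded SWI3D by only 0.01 in replicate 1 and 0.25 in replicate 3, and without the length correction SWI3D was the higher. BSH (AT3G17590, chromosome 3, 6017166 to 6019724), the SNF5-type subunit, has the shortest transcript, with 1009 bases of merged exon. It was at 13.4, 10.3 and 10.1 CPM, which is 13.3, 10.2 and 10.04 CPM per kb, rank 3 among the 10 genes but rank 9 without the length correction.

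BRM and SYD were also set against their scaffold partners, while the MINU motors were not set against SWI3A or SWI3B. BRM and SWI3C kept a nearly fixed ratio, with BRM higher per kb by 1.35-, 1.39- and 1.34-fold in replicates 1, 2 and 3 (log2 ratio 0.45 ± 0.03, SD, n = 3). SYD and SWI3D did not, since SYD was 1.21-fold higher in replicate 1 but at 0.727 and 0.778 of SWI3D in the others (log2 ratio −0.18 ± 0.40). How often any pair of genes keeps so fixed a ratio over 3 libraries was not counted. Of 11 pairs compared, 8 kept 1 direction in 3 of 3 libraries. The test was an exact permutation of signs over libraries (two-sided), for which p = 0.25 is the lowest value that n = 3 allows, so the design gave no pair a chance to pass. Those 8 pairs had that exact p and a Benjamini-Hochberg adjusted exact p of 0.344 over 11 pairs, and the other 3 had 0.5.

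**Figure D3:**
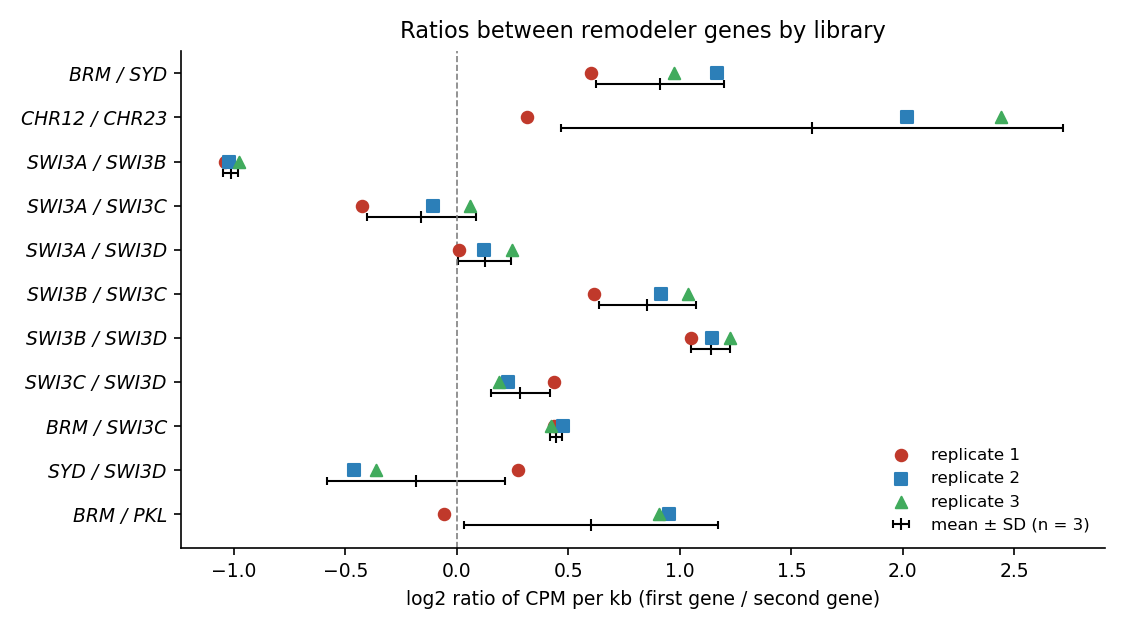
Log2 ratio of CPM per kb for 11 gene pairs in each library, with mean ± SD (n = 3) under the points. The 3 points of BRM/SWI3C and SWI3A/SWI3B nearly coincide, whereas replicate 1 lies apart for CHR12/CHR23, SYD/SWI3D and BRM/PKL.

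PKL differed between libraries more than any other member except CHR23. PKL (AT2G25170, chromosome 2, 10713807 to 10724106) was at 70.8, 26.2 and 22.6 CPM, with replicate 1 2.70- and 3.13-fold above replicates 2 and 3. Per kb it was close to BRM in replicate 1, at 15.4 against 14.8, while BRM was 1.94- and 1.87-fold higher in replicates 2 and 3. The log2 ratio of BRM to PKL was 0.60 ± 0.57 (SD, n = 3) and became 0.93 without replicate 1, 0.42 without replicate 2 and 0.45 without replicate 3. Of its relatives, CHR4 (PICKLE RELATED 1) was at 67.1, 38.1 and 33.7 CPM, and PKR2 (PICKLE RELATED 2) had 2, 1 and 0 counts.

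The seed programme that PKL is known to silence was read in the same libraries. LEC1, LEC2 and FUS3, the master regulators of embryo identity, were not detected, with 0, 0 and 0 counts for LEC1, 0, 5 and 3 for LEC2, and 18, 6 and 1 for FUS3. The seed regulators ABI3 and ABI5 did not reach 1 CPM in every library either, at 0.699 ± 0.270 and 1.32 ± 0.376 CPM (SD, n = 3). AGL15 was detected, at 2.67 ± 0.594 CPM (SD, n = 3), and 2 of the 9 seed genes listed were detected in total. The seed storage genes were uneven. The cruciferin gene CRA1 was at 105, 5.46 and 30.9 CPM and CRU3 at 108, 0.0327 and 1.34 CPM. The oil body gene OLEO1 was at 9.39, 0.425 and 4.07 CPM. Each was highest in replicate 1, as were PKL and all the other members. From replicate 2 to replicate 3 these storage and oil body genes rose, while PKL fell from 26.2 to 22.6 CPM. Every other member fell between these libraries as well, so the fall was not particular to PKL. CRA1 and OLEO1 passed edgeR's same test (adjusted p = 4.54e-09 and 0.00289), while CRU3 had too few counts in replicate 2 to be tested. Any link between seed transcripts and PKL was not tested.

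Of the 10 genes, 1 passed the test for varying between libraries by more than other genes at its level. By edgeR's goodness of fit to the dispersion trend, CHR23 had a Benjamini-Hochberg adjusted p of 0.00185, the single call among the 10 members, while 2.02% of 19016 tested genes were called. CHR23 and PKL were the 2 members with an unadjusted p under 0.05, and DESeq2 marked 0 of the 10 as dispersion outliers. The share of all tested genes under that unadjusted threshold was not counted, so such counts have no background here or below. PKL followed with an adjusted p of 0.101 and SYD with 0.682, and the other 7 did not pass. The call on CHR23 rests on all 3 libraries: leaving out replicates 1, 2 and 3 in turn gave adjusted p-values of 0.705, 0.0565 and 0.197. All 10 members had their highest level in replicate 1, beside 45.4% of the tested genes. By a stricter rule, CHR23 and PKL were more than 2-fold above both other libraries in replicate 1, beside 6.74% of tested genes. Replicates 2 and 3 were over 2-fold apart for 0 of the 10, beside 1.12% of tested genes, and CHR23 came nearest at 1.88-fold.

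The size of the replicate 1 difference was graded across the members. On the log2(CPM + 0.5) scale, replicate 1 exceeded the mean of replicates 2 and 3 by 2.62 for CHR23, 1.52 for PKL, 1.01 for SYD and 0.75 for CHR12. It did so by 0.54 for SWI3C, 0.54 for BRM, 0.38 for BSH, 0.32 for SWI3D, 0.19 for SWI3B and 0.15 for SWI3A. The median over the members was 0.54, beside 0.01 over all tested genes. The ATPases took 5 of the 6 largest differences and the scaffold and SNF5-type genes the 4 smallest.

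Most related genes were highest in replicate 1 as well. Of 20 other genes listed for SWI/SNF complexes, 19 were detected, all 20 were tested and 16 were highest in replicate 1, with a median difference of 0.62. Of these 20, edgeR's test called 0 after adjustment and 2 at an unadjusted p under 0.05, and DESeq2 marked 0 as dispersion outliers. CHC1, a SWIB-domain subunit, led at 29.97 ± 2.08 CPM per kb, ahead of the actin-related gene ARP4 at 27.6 ± 3.07 and the uncharacterized AT5G55210 at 24.8 ± 2.14 (SD, n = 3). For AT5G55210, 17.1% of the exon bases are also annotated to another gene, which makes its level uncertain. ARP7 and LFR went the other way, lowest in replicate 1 at 13.7 against 23.9 and 24.4 CPM and at 17.5 against 21.3 and 23.2 CPM. The lowest of the list were AT3G20280, a zinc finger gene, at 1.94 ± 0.591 CPM per kb and AT3G03460 at 1.44 ± 1.23. Of 15 genes of other remodelers, 14 were detected and tested, and 12 of these 14 were highest in replicate 1, with a median difference of 0.97. Of the 14, 0 were called after adjustment, 7 had an unadjusted p under 0.05, and DESeq2 marked 0. The unadjusted counts of both lists have no share over all tested genes beside them. The other remodelers were led by the ISWI gene CHR11 at 16.4 ± 7.48 CPM per kb, ARP6 of the SWR1 complex at 16.3 ± 1.29 and ETL1 (CHR19) at 14.1 ± 0.740. PIE1, the SWR1 motor, stood at 2.00 ± 1.18 CPM per kb.

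**Figure D4:**
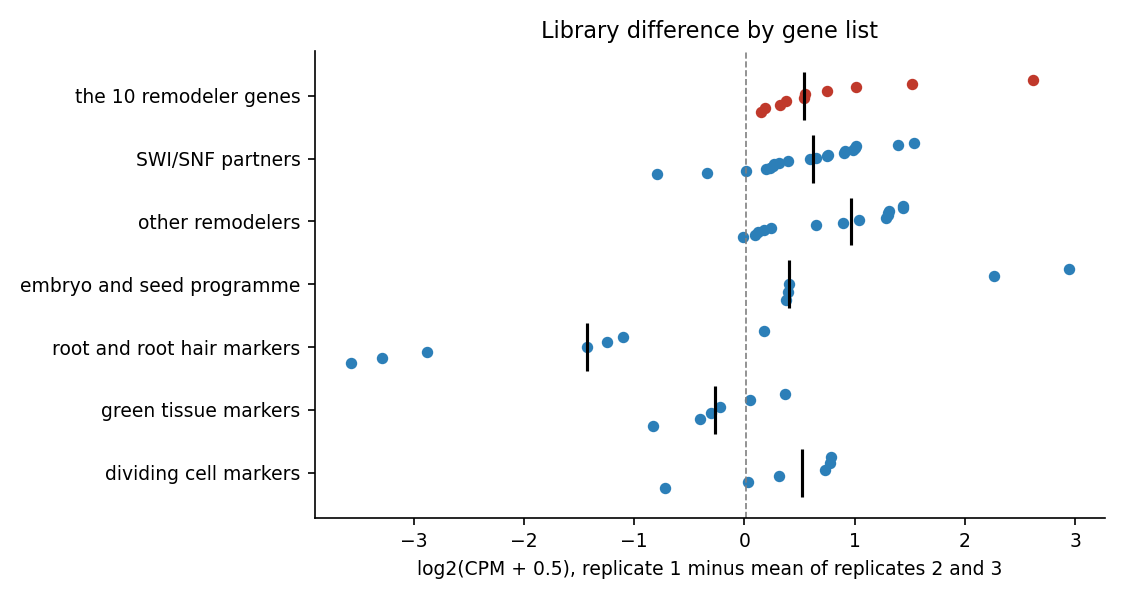
Difference of log2(CPM + 0.5) between replicate 1 and the mean of replicates 2 and 3, 1 point per tested gene in each list, with the list median as a bar and the median of all tested genes (0.01) as a dashed line. The 10 remodeler genes all lie above 0, with a median of 0.54, while the root markers have a median of −1.43.

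The members also share a base composition that the choice did not use. Purine bases (A and G on the transcript strand) made up 53.2% (SWI3C) to 56.4% (CHR23) of their merged exons, against a median of 50.6% over 18541 tested protein-coding genes. All 10 fell in the highest 2 deciles of these genes, with 5 in each. The median over the members was 54.1%, beside 54.5% over the 15 genes of other remodelers and 52.6% over the 20 other SWI/SNF genes. A high purine share was thus not particular to the members. Across all tested protein-coding genes, the replicate 1 difference ran from a median of −0.31 in the lowest decile of purine share to 0.68 in the highest. Spearman's rho between purine share and difference was 0.391 across genes, beside 0.251 for exon length and −0.088 for GC content. Genes share the libraries and are not independent replicates. Among the 10 members, which share these libraries too, rho was 0.697 for purine share, 0.564 for exon length and −0.418 for GC content. These values are descriptions and not tests. CHR23 had both the highest purine share and the largest difference.

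CHR23, PKL and SYD exceeded the upper quartile of their own purine decile, and the other 7 lay within the quartiles. In the highest decile, where CHR23 and PKL lie, the median was 0.68 and the quartiles were 0.16 and 1.23. In the decile of SYD the median was 0.27 and the upper quartile 0.69. CHR12, in the same decile as CHR23 and with a purine share of 55.5%, was at 0.75. Exon length moved with the difference too, from a median of −0.16 in the shortest decile to 0.36 in the longest, which holds BRM, SYD, CHR12, CHR23, SWI3D and PKL. The part of purine share, of exon length and of the root and seed markers in the members' differences was not tested.

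The purine-rich stretches of these transcripts are printed below for the pair that differed most and for PKL and SWI3A. Each is the 60-base window of 1 coding exon with the most purines, 5′ to 3′ on the coding strand of TAIR10.1, with purines in capitals. They lie at chr5:6503250-6503309 (CHR23, plus strand), chr3:1802597-1802656 (CHR12, minus), chr2:10716370-10716429 (PKL, plus) and chr2:19533165-19533224 (SWI3A, plus).
CHR23: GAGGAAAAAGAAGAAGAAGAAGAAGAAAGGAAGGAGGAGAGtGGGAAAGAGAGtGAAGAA
CHR12: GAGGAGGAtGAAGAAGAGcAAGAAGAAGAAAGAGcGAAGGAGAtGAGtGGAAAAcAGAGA
PKL: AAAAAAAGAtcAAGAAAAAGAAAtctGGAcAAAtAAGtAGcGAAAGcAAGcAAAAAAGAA
SWI3A: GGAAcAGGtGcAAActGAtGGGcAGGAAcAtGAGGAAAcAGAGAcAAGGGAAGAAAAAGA
CHR23 held 58 purines of 60 bases in a stretch broken by 2 pyrimidines near the end of its coding sequence, and CHR12 held 54 in the matching last exon. PKL and SWI3A both held 49, with replicate 1 differences of 1.52 and 0.15. Of the members not printed, SYD and SWI3C held 51, SWI3D 48, BRM 46, SWI3B 45 and BSH 41. The share of coding windows with at least 45 purines was 6.27% for CHR23, 6.69% for CHR12, 1.82% for PKL and 7.75% for SWI3A. It was 4.44% for SWI3C, 2.83% for SWI3D, 1.09% for SYD, 0.347% for BRM, 0.0947% for SWI3B and 0% for BSH. Any link of these windows to the differences was not tested.

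**Figure D5:**
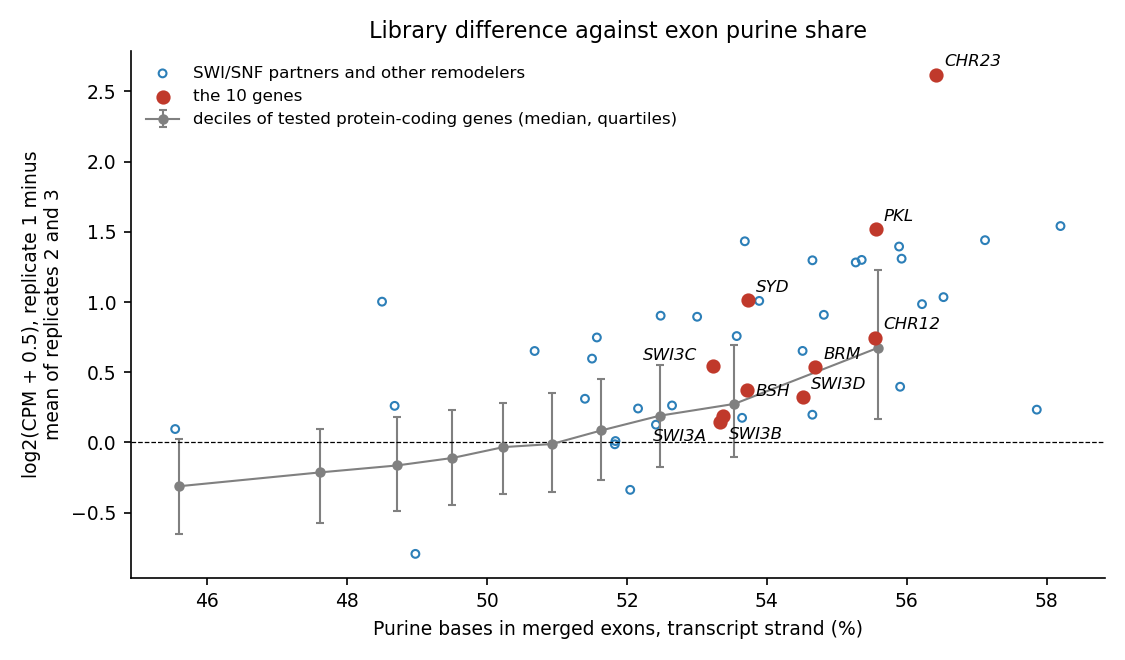
Difference of log2(CPM + 0.5) between replicate 1 and the mean of replicates 2 and 3 against the purine share of merged exons (%). Red points are the 10 genes, open blue circles the other SWI/SNF and remodeler genes, and grey points the deciles of tested protein-coding genes (median, with quartiles as bars), whose medians rise from −0.31 to 0.68; CHR23 stands highest at 2.62.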

How the data were processed

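RNA-seq counts from 3 libraries of 1 group were analysed. The deposited values are whole-number counts per gene. TAIR10, DESeq2, featureCounts 1.6.1 and HISAT2 2.1.0 appear, without roles, in the submitters' processing notes. Gene annotation, strand setting and filters were not given in the sources used here. In the table, 0 columns belonged to other samples. Exon lengths, coordinates and sequences are from RefSeq TAIR10.1, matched to 37051 of 37336 identifiers.

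CPM used TMM library sizes from all genes (edgeR 4.0.16, R 4.3.3). Pseudocounts were 0.1 per kb for gene ratios and 0.5 for library differences. Variation was tested on 19016 genes after filterByExpr, with an intercept-only fit, edgeR's goodness of fit to the dispersion trend and Benjamini-Hochberg adjustment at 0.05. On simulated counts for 19016 genes, with 200 raised in 1 library, 55 were recovered at 4-fold with 3 false calls, 197 at 16-fold with 11, and 190 at 64-fold with 10. These counts had 1 common dispersion for all genes and libraries, and only genes above a minimum mean count were raised. In the data replicate 1 stood apart, so these figures need not hold there. Proteins were aligned with Biopython 1.88 (BLOSUM62). Limits from 3 counts cover counting error only.

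The members, the 6 lists (67 genes), the pairs and the naming rule were chosen with earlier results of these data known. All members were named, with the 3 highest and 2 lowest genes of other remodeler lists, and any called gene; marker and seed genes were open to naming. CHR4, ARP7 and LFR were named outside this rule after their values were seen. The comparisons with purine share, exon length and GC content were not among the planned results. Alternatives were DESeq2 1.42.0 size factors or dispersion outliers, total counts, no filter, other lengths, a pseudocount of 1, and each library left out.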

Additional observations from a re-analysis of the deposited data

How the results depend on the processing

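Without the length correction the mean log2 ratio of SWI3A to SWI3D turned to −0.78, that of SWI3C to SWI3D to −0.11 and that of SYD to SWI3D to 1.42, while the other 8 means kept their sign. All 11 means kept it with coding length, with a pseudocount of 1 and without each library. Some were smaller than their SD, as for SWI3A to SWI3C with coding length (−0.018, SD 0.25) and without replicate 1 (−0.025, SD 0.12). For SYD to SWI3D without replicate 2 the mean was −0.045 (SD 0.45). The count of members called variable was 1 with DESeq2 size factors, total counts or no filter, but 0 by DESeq2 dispersion outliers (which marked 23 of 19016 genes) and 0 to 0 with 1 replicate left out. Fewer libraries also lower the power of that test. At an unadjusted p under 0.05, 1 to 2 members passed with 1 library left out. All 10 members stayed highest in replicate 1 with DESeq2 size factors and total counts. Total counts raised the median difference of all tested genes by 0.15 and the share of genes highest in replicate 1 from 45.4% to 56.1%, with a member median of 0.70. No paired analysis was possible because all samples form 1 group. CHR23 had the fewest counts of the members, 61 in replicate 3, and so the largest counting error.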

Other observations

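The centred profile of the 10 remodeler genes over the 3 libraries (median 0.36, −0.07 and −0.30 on the log2 scale in replicates 1, 2 and 3) was compared with 7721 other detected genes that have a RefSeq symbol. The nearest by Euclidean distance were GGT1 (0.000557), UGP3 (0.00171) and PUM24 (0.00394). With 3 libraries such likeness is common, since 253 genes lay within a distance of 0.1.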
